A study of Homo sapiens with 16 samples.

Results

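OCT1 and DNMT3B binding was compared in MCF10CA1a cells treated with pterostilbene (PTS), using 20376 peaks of the 118439 peaks that the series holds in its 4 lists. The members are all distinct peaks with a pileup of 13 or more in the OCT1 list (16054 peaks) and the DNMT3B list (4322 peaks) of PTS-treated cells. A peak was called shared when it had at least 1 base in common with a peak of the other list, and OCT1-only or DNMT3B-only when it had none. The labels call these lists enriched in PTS. The pileup, fold and p-value of a peak use no vehicle signal at that place, only a scaling to equal depth between treatments. The lists were therefore read here as peaks present in PTS-treated cells. If the authors did choose the peaks against vehicle, places bound equally in both treatments would be missing from them. OCT1-only and DNMT3B-only therefore describe the lists: a place without a peak can still carry signal under the calling limit, and no pileup is given there.

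MCF10CA1a is an invasive human breast cancer cell line, obtained from xenografts of MCF10A breast epithelial cells transformed with HRAS. Chromatin was immunoprecipitated and sequenced with an antibody against OCT1 or against DNMT3B, each in 3 biological replicates of cells exposed to PTS at 7 µM for 9 days and 3 replicates of cells given the ethanol vehicle. Each antibody also had 1 input library per treatment. All samples are of this cell line, so no untransformed cells are among the groups. The authors pooled the 3 replicates before calling peaks, so each place has 1 value per antibody and treatment. No replicate error, and no test over replicates, could be had, and all intervals below are 95% intervals that cover counting error alone. A ratio of OCT1 over DNMT3B compares 2 pools of libraries made with different antibodies, so the strength of the antibody and the amount of bound protein cannot be told apart in it. The pooled depth, computed from the background of each list, was 47700000 reads for OCT1 and 47300000 for DNMT3B.

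OCT1, encoded by POU2F1, is a transcription factor whose POU domain recognizes the octamer ATGCAAAT, and it is known for activating small nuclear RNA and histone H2B genes. DNMT3B is a de novo DNA methyltransferase with no long recognition sequence of its own, and it is known for methylating pericentromeric satellite repeats, gene bodies and germline genes. Microsatellites are runs of a short unit repeated in tandem. Runs of alternating AC (GT on the other strand) are among the most common of them in the human genome.

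Runs of AC or AG are shown first because most DNMT3B-only peaks far from OCT1 peaks held one, although only 110 of the 1633 DNMT3B-only peaks with sequence did. The first 4 sequences lie in DNMT3B-only peaks, 3 of them more than 100 kb from any OCT1 peak. The next 2 lie in shared peaks in which DNMT3B had more fragments than OCT1. All are from GRCh37/hg19, plus strand, and the capitals mark the longest unbroken tandem run around the middle of the peak.
C2CD4D (chr1:151809158-151809277, enhancer state): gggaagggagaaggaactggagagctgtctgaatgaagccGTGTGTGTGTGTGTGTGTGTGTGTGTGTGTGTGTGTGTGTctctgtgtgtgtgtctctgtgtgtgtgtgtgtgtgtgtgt
PAXBP1 (chr21:34144156-34144274, promoter state): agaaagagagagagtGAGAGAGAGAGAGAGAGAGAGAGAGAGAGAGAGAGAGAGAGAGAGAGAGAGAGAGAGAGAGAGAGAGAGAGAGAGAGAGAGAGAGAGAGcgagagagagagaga
NLK (chr17:26438888-26439007, enhancer and heterochromatin states, intron): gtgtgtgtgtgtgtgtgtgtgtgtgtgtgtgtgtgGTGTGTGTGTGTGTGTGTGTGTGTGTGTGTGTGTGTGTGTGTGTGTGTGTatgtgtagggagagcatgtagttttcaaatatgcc
CACNA2D1 (chr7:81821742-81821861, heterochromatin state, intron): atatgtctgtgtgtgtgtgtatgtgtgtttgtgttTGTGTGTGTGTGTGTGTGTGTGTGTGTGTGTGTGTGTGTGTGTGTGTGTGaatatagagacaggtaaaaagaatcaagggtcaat
LSG1 (chr3:194366269-194366387, transcribed state, intron): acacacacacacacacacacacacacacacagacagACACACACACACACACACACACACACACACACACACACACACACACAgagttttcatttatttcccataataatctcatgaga
TNNT2 (chr1:201316248-201316366, enhancer state): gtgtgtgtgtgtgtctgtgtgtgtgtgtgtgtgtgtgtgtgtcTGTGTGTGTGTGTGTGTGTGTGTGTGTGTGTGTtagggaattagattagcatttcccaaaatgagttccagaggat

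For contrast, 3 sequences stand for other kinds of places. The CDH4 sequence is from a shared peak in which OCT1 had more fragments, and it has no capitals because its longest run was 9 bp. The CDH23 sequence is from an OCT1-only peak and has the octamer of the minus strand in capitals. The satellite sequence is from a shared region on chromosome 10 next to the centromere with many fragments of both antibodies, and its capitals mark repeats of the 5-base unit AATGG, which reads CCATT on the plus strand.
CDH4 (chr20:59904358-59904477, transcribed state, intron): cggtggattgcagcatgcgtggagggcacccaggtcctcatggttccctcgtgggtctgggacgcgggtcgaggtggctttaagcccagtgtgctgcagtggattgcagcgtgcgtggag
CDH23 (chr10:73313410-73313529, heterochromatin state): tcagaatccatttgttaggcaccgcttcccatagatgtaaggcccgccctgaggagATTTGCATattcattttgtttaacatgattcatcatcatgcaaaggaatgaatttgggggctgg
Satellite (chr10:42382947-42383066): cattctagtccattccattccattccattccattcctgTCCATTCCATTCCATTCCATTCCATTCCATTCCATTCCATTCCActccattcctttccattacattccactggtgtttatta

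Most DNMT3B peaks had an OCT1 peak at the same place, and most OCT1 peaks had no DNMT3B peak. Of the OCT1 peaks, 2626 of 16054 (16.4%, Wilson interval 15.8 to 16.9) shared a base with a DNMT3B peak. Of the DNMT3B peaks, 2688 of 4322 (62.2%, interval 60.7 to 63.6) shared a base with an OCT1 peak. This left 13428 OCT1-only and 1634 DNMT3B-only peaks.

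Sharing followed the height of the peak in both lists. The pileup, the number of pooled fragments over the summit scaled by the authors to equal depth between treatments, had a median of 17.8 in the OCT1 list and 19.2 in the DNMT3B list. At a pileup of 13 to 15, 2.64% of 1743 OCT1 peaks and 38.2% of 283 DNMT3B peaks were shared. At 20 to 25 it was 27.7% of 2171 OCT1 peaks and 71.5% of 882 DNMT3B peaks. Above 50 the lists were almost the same, with 289 of 289 OCT1 peaks and 243 of 246 DNMT3B peaks shared. The highest pileup of an OCT1-only peak was 39.6, a fold enrichment of 9.02 over background, and that of a DNMT3B-only peak was 53.0, a fold of 12.9. The highest shared peaks reached a fold of 88.2 for OCT1 and 87.0 for DNMT3B.

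**Figure D1:**
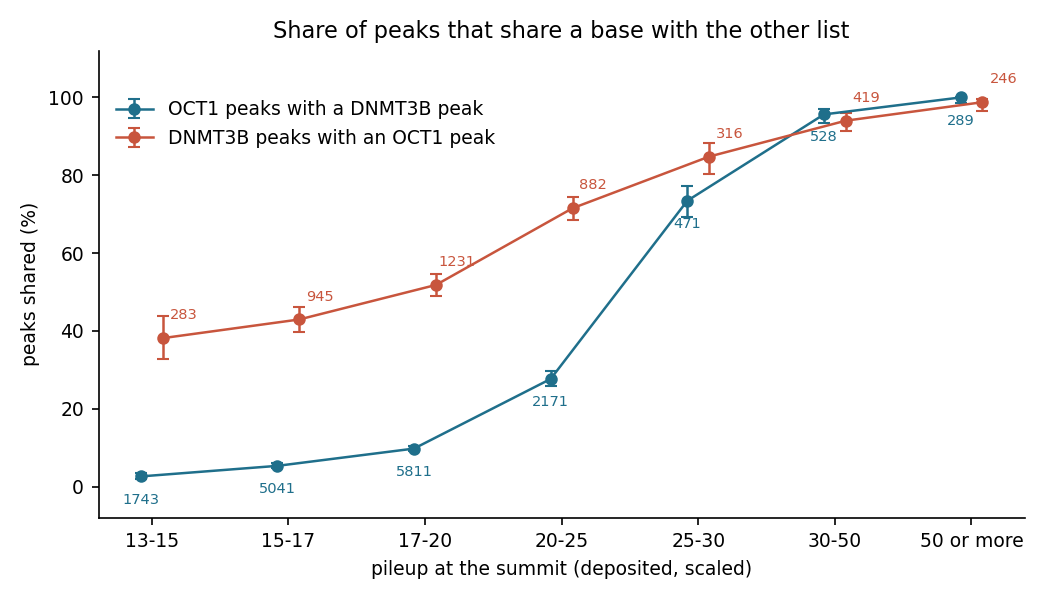
Share of peaks (%, vertical axis) that share a base with the other list, by pileup at the summit (horizontal axis), for OCT1 and DNMT3B peaks of PTS-treated cells. Bars are 95% Wilson intervals and the small numbers give the peaks per bin. OCT1 peaks start at 2.64% and DNMT3B peaks at 38.2%, and both end at or above 98.8%.

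Unshared DNMT3B peaks lay much closer to the other list than unshared OCT1 peaks did. The median distance to the nearest peak of the other antibody was 27.7 kb for OCT1-only and 1.63 kb for DNMT3B-only peaks. It was over 100 kb for 4449 OCT1-only peaks (33.1%) and for 128 DNMT3B-only peaks (7.83%). With up to 1 kb allowed between peaks, 24.9% of OCT1 and 77.3% of DNMT3B peaks had a neighbor in the other list. The OCT1 list is the longer one, so a DNMT3B peak has more OCT1 peaks around it than the reverse.

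Few unshared peaks were high enough to be set apart from the calling limit of the other list. The lowest peaks of the lists as deposited had 13 fragments for OCT1 and 14 for DNMT3B. A peak was counted here when its fragments exceeded the lowest count of the other list beyond counting error, which needed 28 or more fragments in an OCT1-only and 26 or more in a DNMT3B-only peak. This held for 64 of the 13428 OCT1-only peaks (0.477%) and for 116 of the 1634 DNMT3B-only peaks (7.1%, interval 5.95 to 8.45). The 2 sets differed in sequence. Of the 64 OCT1-only peaks, 39 (60.9%) matched another place of the reference at 90% identity or more along 80% or more of their length, called a near-identical copy here, and 3 (4.69%) held a tandem repeat of 24 bp or more. Of the 116 DNMT3B-only peaks, 26 (22.4%) had such a copy and 70 (60.3%) held a tandem repeat. Reads from near-identical copies cannot be placed with certainty, and their part in these peaks was not tested.

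The chromatin state of each peak, taken by the authors from the Broad ChromHMM map of normal human mammary epithelial cells (HMEC), differed between shared and unshared peaks. Heterochromatin held 47.8% of OCT1-only peaks (interval 46.9 to 48.6) and 37.5% of DNMT3B-only peaks (35.1 to 39.8), against 15.2% of shared OCT1 peaks (13.8 to 16.6). Repetitive states held 1.91% of OCT1-only and 8.75% of DNMT3B-only peaks, against 30.1% of shared OCT1 peaks. A further 24.3% of shared OCT1 peaks had no state, which was the case on sequences outside chromosomes 1 to 22 and X. Unshared peaks of both antibodies thus lay less often in repetitive states than shared peaks did. The order was the same with both lists cut to a deposited P-value under 0.05 and sharing called anew. Repetitive states then held 25.7% of OCT1-only and 34.9% of DNMT3B-only peaks, against 51.5% of shared OCT1 peaks. In such cut lists an unshared peak can still overlap a peak of the other list that was cut.

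In enhancers, transcribed states, heterochromatin and repetitive states, the unshared peaks differed less between the antibodies than either did from shared OCT1 peaks. This did not hold for promoters, insulators and Polycomb-repressed regions. Polycomb-repressed regions held 4.76% of OCT1-only peaks (interval 4.41 to 5.13), 2.88% of DNMT3B-only peaks (2.17 to 3.80) and 3.66% of shared OCT1 peaks. Transcribed states held 28.6% of OCT1-only and 29.0% of DNMT3B-only peaks. Promoters held 3.80% and enhancers 16.8% of OCT1-only peaks, against 3.18% and 19.0% of DNMT3B-only peaks. Heterochromatin, with intervals that do not overlap, was more frequent in OCT1-only peaks. With both lists cut to a pileup of 20 or more and sharing called anew, it held 34.6% of OCT1-only and 26.7% of DNMT3B-only peaks. The order turned round with both lists cut to a deposited P-value under 0.05, at 13.6% of OCT1-only and 23.3% of DNMT3B-only peaks. Shared OCT1 peaks had 5.88% there, so the antibodies differed more from each other than OCT1-only from shared OCT1 peaks. Seen per class, an OCT1 peak was shared in 5.84% of cases in heterochromatin, 12.7% in promoters and 12.7% in enhancers, and in 75.5% in repetitive states. A DNMT3B peak was shared in 38.6% of cases in heterochromatin, 59.1% in promoters, 49.6% in enhancers and 84.9% in repetitive states. Heterochromatin had the lowest shared percentage of the 8 classes for both antibodies.

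**Figure D2:**
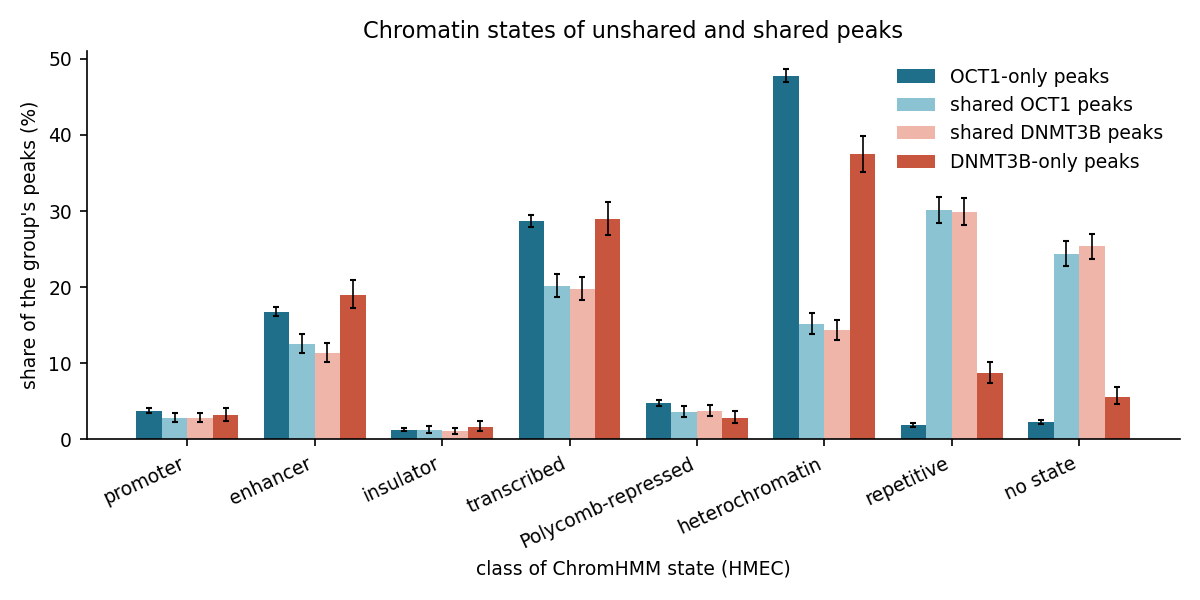
Share of peaks (%, vertical axis) in each class of ChromHMM state of HMEC (horizontal axis) for OCT1-only, shared OCT1, shared DNMT3B and DNMT3B-only peaks, with 95% Wilson intervals. A peak counts in every class listed for it. Heterochromatin holds 47.8% of OCT1-only and 37.5% of DNMT3B-only peaks, and repetitive states hold 30.1% of shared OCT1 peaks.

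Peaks crowded into a few stretches of the genome, and many of these were the same for unshared peaks of both antibodies and for shared peaks. Chromosome 9 alone held 28.6% of OCT1-only and 28.0% of DNMT3B-only peaks, against 9.14% of shared OCT1 peaks. Chromosomes 1, 3, 5 and 9 together held 68.9% of OCT1-only and 56.4% of DNMT3B-only peaks. In windows of 1 Mb, 9 of the 10 most crowded windows were the same for OCT1-only and DNMT3B-only peaks, and 5 of these were also among the 10 most crowded windows of shared OCT1 peaks. The window at 73 Mb of chromosome 10 held 531 OCT1-only and 75 DNMT3B-only peaks, the one at 17 Mb of chromosome 17 held 463 and 46, and the one at 128 Mb of chromosome 8 held 298 and 65. They contain CDH23, which encodes a cadherin of hair cell links, RAI1, a transcriptional regulator, and PVT1, the long noncoding RNA gene beside MYC. The deposited fold is over a background value of the whole list and not over the input at the place. Input signal in these stretches was not analysed here. The part of DNA copy number in the crowding was therefore not tested, and crowded peaks are not read here as dense binding.

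CDH23 had the most OCT1-only peaks of all genes, with 287 OCT1-only and 24 DNMT3B-only peaks. PVT1 had the most DNMT3B-only peaks, with 153 OCT1-only and 28 DNMT3B-only peaks. The 10 most crowded windows of each kind held 21.3% of OCT1-only and 26.3% of DNMT3B-only peaks, against 29.2% of shared OCT1 peaks. Counts per gene therefore rest in good part on where these windows lie, and the part of DNA copy number in these counts was not tested either. Without chromosome 9, a setting chosen after seeing the data, 19.9% of OCT1 and 67.5% of DNMT3B peaks were shared.

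At shared places the 2 antibodies recovered nearly equal amounts of DNA. Overlapping peaks were joined into 2424 regions, and the highest pileup of each antibody was turned back into whole fragments. The ratio of OCT1 over DNMT3B fragments, scaled for depth, had a median of 1.02 (interval 0.991 to 1.03) and quartiles of 0.892 and 1.16. It was above 1 in 1237 regions and below 1 in 1187. Its exact binomial interval lay above 1 in 21 regions (0.866%) and below 1 in 19 regions (0.784%). The intervals were not corrected for the 2424 regions, and counting error alone could put this many or more on each side of 1. A region called higher for 1 antibody below is only one whose interval excluded 1. Across regions, log2 fragments of the antibodies had a Pearson r of 0.92 and fragments a Spearman coefficient of 0.792 (n = 2424 regions). This is a description over places that share libraries and mappability, and every region had to pass the calling limit in both lists. Summits lay a median of 73.5 bp apart.

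At most shared regions the interval of the ratio included 1, and 4 named genes are given as examples of these. The long noncoding RNA gene LINC00910 had 55 OCT1 and 54 DNMT3B fragments at a region with enhancer and repetitive states. CACNA1C, which encodes the pore of an L-type calcium channel, had 54 and 54 fragments at a region with heterochromatin and repetitive states. RPTOR, the partner of mTOR in mTORC1, had 35 OCT1 and 31 DNMT3B fragments. HRAS, the oncogene carried by this cell line, had 23 and 21 fragments at a promoter and enhancer state.

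Of the 21 regions called higher for OCT1, 11 (52.4%) were in repetitive states and 4 (19.0%) had no state, against 30.4% and 23.5% of all shared regions. A tandem repeat was in 4 of the 21 and an AC or AG run in 0. DANT2, a long noncoding RNA gene on the X chromosome, had 88 OCT1 and 59 DNMT3B fragments (ratio 1.48, interval 1.05 to 2.09), and 14 near-identical copies of it were found. CDH4, which encodes R-cadherin, had 49 and 28 fragments (ratio 1.73, interval 1.07 to 2.86) with no copy found. It was also higher for OCT1 in vehicle-treated cells, with a fold of 12.7 for OCT1 and 7.62 for DNMT3B.

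Of the 19 regions called higher for DNMT3B, 10 held an AC or AG run and 13 any tandem repeat of 24 bp or more, while AC or AG runs were present in 43 of all 2424 shared regions. DNMT3B was called higher in 10 of these 43 regions, against 0.784% of all regions, and OCT1 in 0 of 43. The grouping by AC or AG run was made with these data known, so this contrast is a description and not a test. The median ratio over the 43 regions was 0.861, compared with 1.02 over the 2161 regions without a tandem repeat and 0.973 over 133 regions with the satellite unit AATGG. In regions up to 500 bp with 1 peak of each list on chromosomes 1 to 22 and X, a subset chosen after seeing the data, all 23 regions with an AC or AG run had a ratio below 1. Their median was 0.626 (range 0.358 to 0.874), compared with 0.991 over 872 regions of the same kind without a repeat.

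Single places show the size of this difference. At an intron of LSG1, a GTPase gene of ribosome maturation, OCT1 had 39 and DNMT3B 90 fragments (ratio 0.429, interval 0.287 to 0.632) over an AC run of 47 bp. At an intron of DNAH14, an axonemal dynein gene, it was 26 OCT1 and 62 DNMT3B fragments over an AG run of 56 bp. At an enhancer state near TNNT2, the gene of cardiac troponin T, it was 29 and 56 fragments, and at an enhancer state assigned to KLF10, a TGF-beta-induced transcription factor, 17 and 47 fragments (ratio 0.358, interval 0.193 to 0.636). In each of these places the interval of the ratio lay below 1. An enhancer state in an intron of PITPNC1, which encodes a phosphatidylinositol transfer protein, held an AC run of 60 bp with 30 OCT1 and 47 DNMT3B fragments, and there the interval of the ratio (0.386 to 1.02) included 1.

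**Figure D3:**
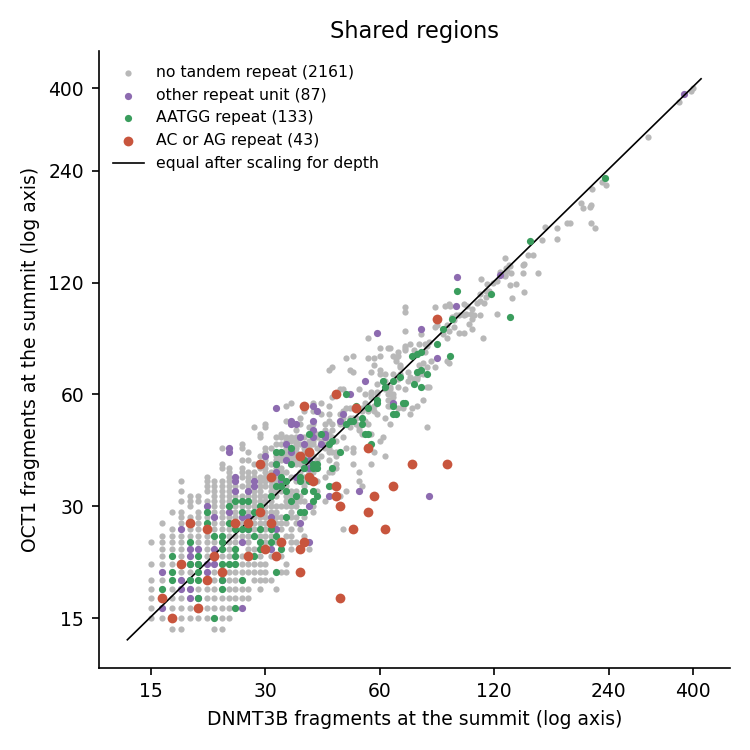
OCT1 fragments (vertical, log axis) against DNMT3B fragments (horizontal, log axis) at the summit of the 2424 shared regions of PTS-treated cells, colored by the tandem repeat of 24 bp or more in the region. The line marks equal amounts after scaling for depth. Many of the 43 regions with an AC or AG run lie below the line, and the other repeat classes scatter around it.

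The vehicle lists, which had no part in choosing these regions, gave medians in the same direction. Of the 23 short regions, 19 had a peak of both antibodies in vehicle-treated cells. All 19 ratios were below 1, with a median of 0.541 and a range of 0.376 to 0.914. Of the 4 others, 3 had a DNMT3B peak alone and 1 an OCT1 peak alone. Regions of the same kind without a tandem repeat had a vehicle median of 1.01 over 535 regions. The difference was smaller over all 43 regions with an AC or AG run: 37 had both vehicle peaks, 23 of these had a ratio below 1, and the median was 0.803 (range 0.376 to 1.63), compared with 1.04 over 1663 regions without a repeat. Because the same places were pulled down by the same antibodies, the vehicle values are not independent of the antibody, and whether the protein or the antibody sets the ratio was not tested.

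DNMT3B-only peaks far from any OCT1 peak were mostly such runs. A tandem repeat of 24 bp or more, with a unit of up to 6 bases, was found in 137 of 1633 DNMT3B-only peaks (8.39%, interval 7.14 to 9.83) and in 168 of 13428 OCT1-only peaks (1.25%, interval 1.08 to 1.45). Flanks of equal length 5 kb away held one in 2.72% and 2.63% of cases for DNMT3B-only and OCT1-only peaks. Of the 137 repeats in DNMT3B-only peaks, 102 had the unit AC and 8 the unit AG. The share of DNMT3B-only peaks with a repeat was 2.30% at up to 1 kb from an OCT1 peak, 2.94% at 1 to 10 kb, 10.6% at 10 to 100 kb, 55.1% at 100 to 1000 kb and 77.6% beyond. For OCT1-only peaks it stayed between 0.695% and 2.32% over the same distances to a DNMT3B peak. The DNMT3B-only peaks with a repeat numbered 15, 19, 22, 43 and 38 from the nearest to the farthest bin. All DNMT3B-only peaks in these bins numbered 652, 646, 208, 78 and 49, so the share rose while peaks became fewer.

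**Figure D4:**
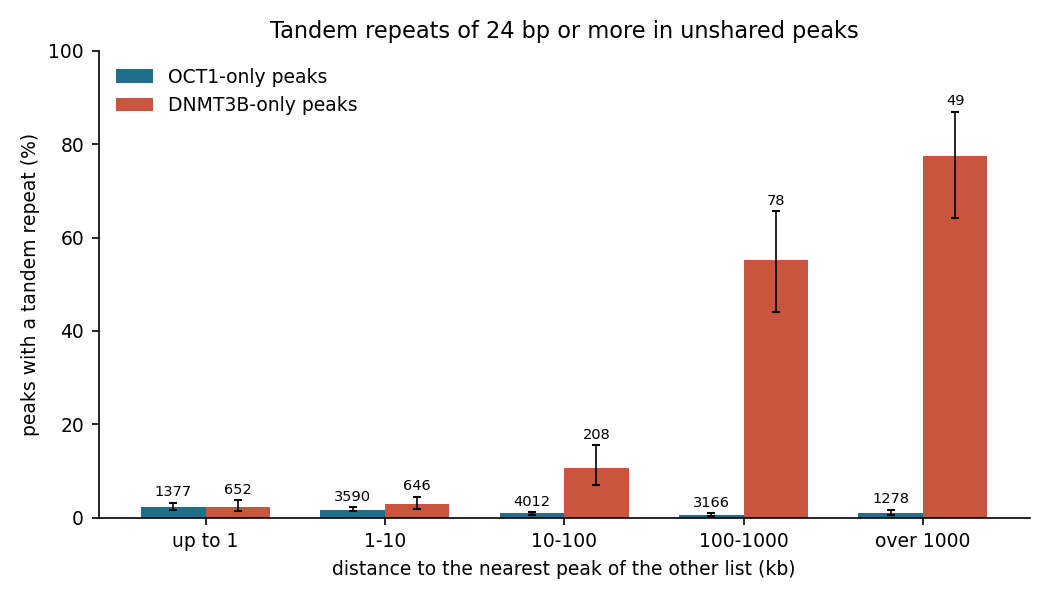
Share of OCT1-only and DNMT3B-only peaks (%, vertical axis) that hold a tandem repeat of 24 bp or more, by distance to the nearest peak of the other list in kb (horizontal axis). Bars have 95% Wilson intervals and the small numbers give the peaks per bin. The DNMT3B-only share is 2.30% in the nearest bin and 77.6% in the farthest, and the OCT1-only share is at most 2.32%.

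Over 100 kb, 81 of 127 DNMT3B-only peaks (63.8%, interval 55.1 to 71.6) held a repeat, and 75 of these were AC or AG runs. Any such repeat was in 0.794% of the flanks of these peaks. The deposited fold is over 1 background value per list and not over the input at the place, and the input signal at these runs was not analysed here, so the fold at a run may include input signal. OCT1-only peaks at that distance held a repeat in 35 of 4444 cases (0.788%). The 100 kb limit and the AC or AG grouping were set with these data known, so these shares are a description. The 81 peaks had runs of 24 to 147 bp (median 48 bp), and their summit lay a median of 21 bp from the middle of the run. They were spread over 22 chromosomes, and 2 of them had a near-identical copy. By class, 47 lay in heterochromatin, 15 in enhancers, 14 in transcribed states and 5 in promoters, and 40 lay inside the assigned gene. Height went with the repeat: 1.68% of DNMT3B-only peaks with a pileup of 13 to 17 held one, 24.3% of those with 20 to 25 and 66.7% of the 75 peaks with 25 or more, compared with 4.73% of 148 OCT1-only peaks of 25 or more.

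Peaks of this kind were among the strongest DNMT3B-only peaks. An enhancer state in introns of ZP4, a zona pellucida glycoprotein gene, and of an overlapping noncoding gene had 58 DNMT3B fragments (fold 12.9), and the nearest OCT1 peak was 1786 kb away. A place in heterochromatin assigned to CNIH3, which encodes an auxiliary subunit of AMPA receptors, had 57 fragments (fold 12.6). Another, assigned to ISX-AS1 but 360 kb from it, had 55 fragments (fold 12.2) over an AG run of 55 bp. An intron of DDX10, an RNA helicase gene, had 44 fragments over an AC run of 62 bp. The promoter state assigned to PAXBP1 had 41 fragments over an AG run of 89 bp. All 5 places had 40 or more DNMT3B fragments and no OCT1 peak within 100 kb.

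Other repeat peaks over 100 kb from OCT1 peaks had fewer fragments. The genes given here were picked from the 81 for their height or a gene list, and stand for no pathway. A promoter state assigned to KCNH2, the hERG potassium channel gene, had 35 DNMT3B fragments, as did an intron of CHRDL1, which encodes a BMP antagonist. CACNA2D1, an auxiliary subunit gene of voltage-gated calcium channels, had 34 fragments, and RYR2, the gene of the ryanodine receptor of heart muscle, had 30. NLK, a kinase gene of the Wnt pathway, had 31, and SPTBN4, a beta-spectrin gene, had 32 over promoter and enhancer states. A place 11.4 kb from CUX1, a homeobox gene, had 28 and an intron of WWOX, a fragile-site tumor suppressor gene, 30. The nearest OCT1 peaks were 534 kb away for NLK, 1893 kb for CACNA2D1 and 4748 kb for CHRDL1. C2CD4D shows that distance was no condition for such a peak: its enhancer state had 49 DNMT3B fragments over an AC run of 40 bp, with an OCT1 peak 3.37 kb away.

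In vehicle-treated cells, 74 of the 81 places (91.4%, interval 83.2 to 95.8) had a DNMT3B peak and 26 (32.1%, interval 22.9 to 42.9) had an OCT1 peak. The ZP4 place had a pileup of 26 for OCT1 and 58 for DNMT3B in vehicle-treated cells, and the CACNA2D1 place one of 24 for OCT1 and 32 for DNMT3B. PAXBP1, NSRP1 and CHRDL1 had no OCT1 peak in either treatment. Places without an OCT1 peak in PTS-treated cells were therefore not all without one in vehicle-treated cells, and the OCT1 pileup was below the DNMT3B pileup at ZP4 and at CACNA2D1.

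**Figure D5:**
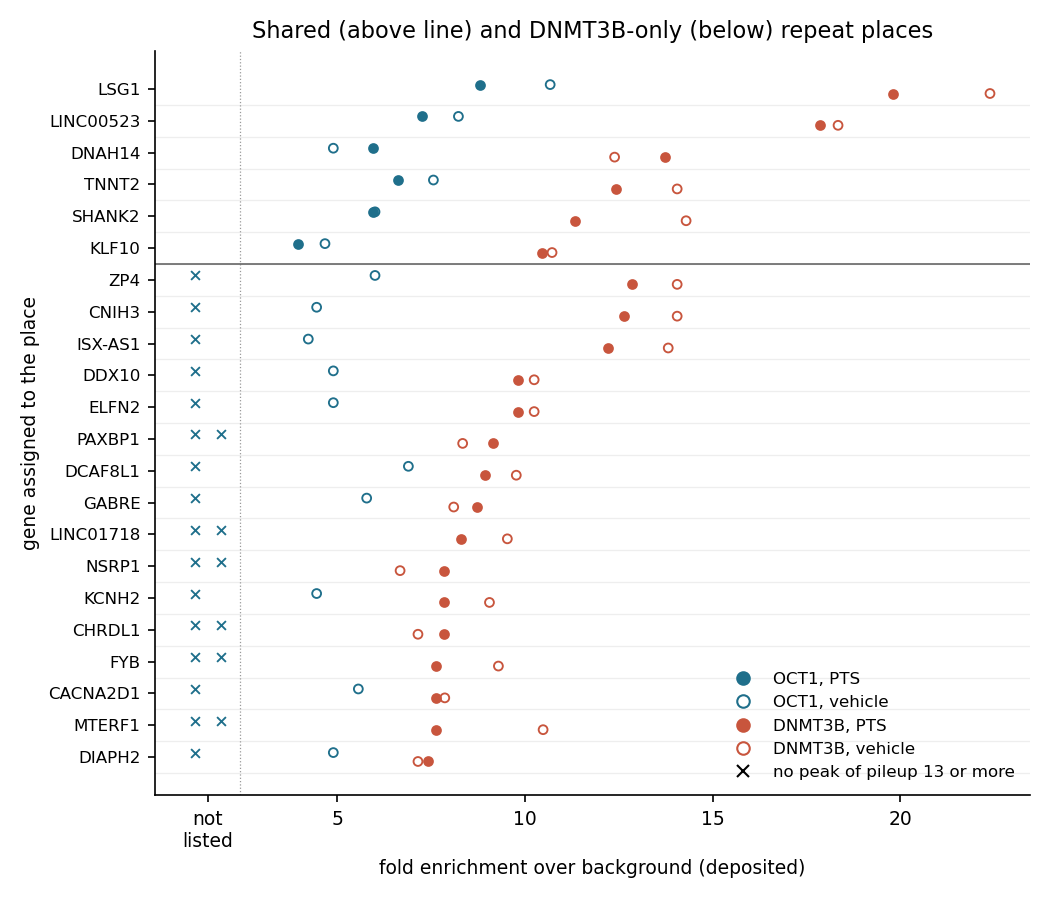
Fold enrichment over background (horizontal axis) at 6 shared regions with the lowest OCT1 over DNMT3B ratio (above the line) and at the 16 strongest DNMT3B-only repeat places over 100 kb from an OCT1 peak (below it), named by assigned gene (vertical axis). Filled points are PTS-treated and open points vehicle-treated cells, and crosses mark places with no peak of pileup 13 or more. At every place with a value of both antibodies in the same treatment, the DNMT3B fold is the higher one. In PTS-treated cells this follows from how the places were chosen, and the vehicle values had no part in that choice.

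Such runs were common in the genome and rarely peaks. Of 57853 unbroken AC runs of 24 bp or more on GRCh37/hg19, 85 (0.147%) lay in an OCT1 peak and 182 (0.315%, interval 0.272 to 0.364) in a DNMT3B peak of PTS-treated cells. Long runs were more often in one: of 269 runs of 60 bp or more, 3 (1.12%, interval 0.380 to 3.23) lay in an OCT1 and 20 (7.43%, interval 4.86 to 11.2) in a DNMT3B peak. In vehicle-treated cells it was 13 and 60 of the 269 runs. Telomere-type repeats of the unit AACCCT were found in 3 DNMT3B-only and 0 OCT1-only peaks, among them 1 at LOC100288778 near the start of chromosome 12, with 52 DNMT3B fragments over 83 bp and 48 near-identical copies.

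The highest OCT1-only peaks lay both in duplicated gene families and outside them. An enhancer state assigned to the uncharacterized locus LOC403323 had 37 OCT1 fragments (fold 8.36) with a DNMT3B peak 2.29 kb away. NOTCH2NL, a partial copy of the receptor gene NOTCH2, had 34 fragments, and GUSBP1, a pseudogene of beta-glucuronidase, had 34 with 17 near-identical copies and a DNMT3B peak 0.616 kb away. KMT2C, a histone H3K4 methyltransferase gene with copies of part of its sequence, had 31. No near-identical copy was found for other high peaks, of which 4 are given. A coding exon of EPPK1, the epiplakin gene, had 35 fragments at transcribed and repetitive states, with the nearest DNMT3B peak 188 kb away. A place 26.1 kb from CCT8L2 had 34, one with an enhancer state 20.96 kb from PSAP, the prosaposin gene, had 27, and one 82 kb from IL33, a cytokine gene, had 28. Near-identical copies were found for 6.40% of OCT1-only and 12.3% of DNMT3B-only peaks, against 34.7% of shared OCT1 peaks. In OCT1-only peaks with a pileup of 25 or more the share was 52.0% (77 of 148).

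OCT1-only peaks were also assigned to cancer and epithelial genes, at low height. The promoter state of CCND1, the gene of cyclin D1, had 19 OCT1 fragments with no DNMT3B peak within 1000 kb. NCOA3, a nuclear receptor coactivator gene, had 21, and KRT14, the basal keratin gene, had 18. None of these 3 places had an OCT1 or DNMT3B peak in vehicle-treated cells. All 3 counts were below the 28 fragments needed to set an OCT1-only peak apart from the DNMT3B calling limit.

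The octamer was not more frequent in OCT1 peaks than beside them. ATGCAAAT, searched on both strands, was found in 153 of 13428 OCT1-only peaks (1.14%, interval 0.973 to 1.33), against 2.16% of flanks. It was in 65 of 2620 shared OCT1 peaks (2.48%), against 4.41% of flanks, and in 15 of 1633 DNMT3B-only peaks (0.919%), against 1.92% of flanks. The shorter ATGCAAA, which holds the octamer's first 7 bases, was in 4.13% of OCT1-only peaks and 6.38% of their flanks. GC content differed between peaks and flanks, with a median of 51.0% in OCT1-only peaks and 44.7% in their flanks, and of 47.7% in DNMT3B-only peaks and 42.5% in theirs. The part of GC content in the lower octamer share was not tested.

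Peaks in states 1 to 13 were assigned to 3401 genes, and few genes had DNMT3B-only peaks alone. OCT1-only peaks were assigned to 3164 genes, DNMT3B-only peaks to 687 and shared peaks to 343. Of the genes with a DNMT3B-only peak, 529 (77.0%) also had an OCT1-only peak, against 93.0% of all 3401 genes. These 529 made up 16.7% of the genes with an OCT1-only peak, and 20.2% of all 3401 genes had a DNMT3B-only peak. Each of the 3401 genes has a peak, so one without a DNMT3B-only peak must have an OCT1-only or a shared one. The gap between 77.0% and 93.0% follows in part from this and is not read as a result. Only DNMT3B-only peaks were assigned to 152 genes, and all 3 kinds to 181. A gene can hold peaks of the 2 antibodies at different places, so shared genes do not stand for shared peaks.

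Genes were also counted by function, in lists drawn up with earlier results of these data known. Over all 3401 genes with a peak, 10.1% had a shared, 93.0% an OCT1-only and 20.2% a DNMT3B-only peak. Of 40 small nuclear RNA and related genes known as OCT1 targets, 8 had any peak. Of these 8, 5 had a shared, 7 an OCT1-only and 2 a DNMT3B-only peak. The set includes RNVU1-18, a U1 RNA gene, where a shared region over promoter and enhancer states had 44 OCT1 and 38 DNMT3B fragments. All of the 8 except RMRP, the RNA of RNase MRP, are variants or copies of U1 RNA genes, so their reads may be split between copies. Histone H2B genes had 2 of 18 genes with a peak, 1 with an OCT1-only and 1 with a DNMT3B-only peak and 0 with a shared peak. Germline genes known as DNMT3B targets had 2 of 19 genes with a peak, HORMAD1 and MAEL. Both had OCT1-only peaks, and 0 germline genes had a shared or a DNMT3B-only peak.

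Cell junction and actin genes had 15 of 39 members with a peak, of which 5 had a shared, 12 an OCT1-only and 7 a DNMT3B-only peak. For Notch signaling it was 9 of 23 genes, with 1 shared, 9 OCT1-only and 3 DNMT3B-only. For Wnt signaling it was 6 of 37 genes, with 1, 4 and 2, and for calcium transport 7 of 41 genes, with 2, 4 and 4. Breast cancer oncogenes had 11 of 21 members with a peak, of which 6 had a shared peak, but several of these genes were picked by the study on these samples. Olfactory receptor genes, listed as a control, had 0 of 21 genes with a peak, and immune cell genes had 2 of 16, CD14 and CSF1R, both with OCT1-only peaks.

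Shared places were largely present in vehicle-treated cells, and unshared ones less often. Of shared OCT1 peaks, 92.7% had an OCT1 peak of vehicle-treated cells at the same place and 81.0% a DNMT3B peak. Of OCT1-only peaks, 49.0% had a vehicle OCT1 peak and 18.4% a vehicle DNMT3B peak. Of DNMT3B-only peaks, 34.1% had a vehicle DNMT3B peak and 49.8% a vehicle OCT1 peak. An OCT1 peak of vehicle-treated cells was thus more frequent at DNMT3B-only places than a DNMT3B peak, and the vehicle OCT1 list, with 79559 peaks against 15304 for DNMT3B, is also the longer one. This order turned round with all lists cut to a pileup of 20 or more and sharing called anew. Of the DNMT3B peaks then unshared, 42.9% had a vehicle DNMT3B peak and 33.6% a vehicle OCT1 peak. These are not the same group, since they can overlap an OCT1 peak of lower pileup. In vehicle-treated cells 9.25% of OCT1 and 49.2% of DNMT3B peaks were shared. By height the vehicle DNMT3B peaks followed a like course, with 37.0% shared at a pileup of 13 to 15 and 95.6% at 30 or more.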

How the data were processed

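The values came from the authors' deposited peak lists of PTS-treated cells, with the lists of vehicle-treated cells beside them. By the methods of the study, reads were trimmed with cutadapt, aligned to GRCh37/hg19, filtered for duplicates and low quality, and called with MACS2 on 3 pooled replicates against pooled inputs, at a fragment size of 200 bp. The deposited pileup is a signal (fragment coverage at the summit), scaled by the authors to equal depth between treatments. For fold enrichment, deposited as a ratio, the pileup was divided by 1 background value per list, with 1 added to each. Peak significance was deposited as −log10 p-values, and the authors' P-value column is a score derived from them that was used in 1 alternative alone. Genes and HMEC ChromHMM states are the authors' (ChIPseeker); lines of 1 peak were merged.

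Fragments are the pileup divided by the step of its list (0.990 for OCT1, 0.913 for DNMT3B). Shares have Wilson intervals and ratios exact binomial intervals, for counting error alone; reads without molecular identifiers are not independent molecules. Sequences came from GRCh37/hg19 (20368 peaks with sequence, 8 without), gene parts from GENCODE 44 lifted to it, and copies from minimap2 2.31-r1302. Scripts ran under python 3.11.15 with scipy 1.17.1 for intervals, pysam 0.24.0 for sequence, pandas 2.3.3 and numpy 2.4.6 for tables and matplotlib 3.10.9 for figures. Overlap, interval and repeat searches were tested on simulated data. Genes named are those of the highest peaks per state class and kind, the shared regions of highest and lowest ratio, genes the paper names, up to 4 members per gene list and the isolated repeat peaks. The members, gene lists and alternatives were chosen with earlier results of these data known. Input libraries and reads were not analysed here.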

Additional observations from a re-analysis of the deposited data

How the results depend on the processing

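Of 134 values recomputed for 32 results, 54 stayed within their interval (or, for counts, within 1.5 times) and 80 moved. For shared percentages, states and vehicle peaks, a limit on pileup or deposited P-value cut both lists before sharing was called anew. Unshared peaks there can overlap a peak of the other list that was cut. No paired analysis was possible because the replicates are pooled in each list, and for the same reason no replicate could be left out. Results with no test cannot lose a call, so moved values stand here without a cause, which was not tested. The lowest peak of a list was taken as its calling limit, and 64 OCT1-only and 116 DNMT3B-only peaks exceeded that of the other list beyond counting error.

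The shared percentage of OCT1 peaks and of DNMT3B peaks was 14.7 and 56.9 with 50% of the shorter peak shared, 18.3 and 66.8 with a gap of 200 bp, 24.9 and 77.3 with 1 kb, 38.5 and 73.5 at a pileup of 20 or more, 70.1 and 85.9 at 30 or more, and 60.4 and 83.8 at a deposited P-value under 0.05. It was 13.1 and 56.5 on chromosomes 1 to 22 and X, 12.2 and 55.4 without repetitive states, 15.0 and 59.9 with peaks merged within 200 bp, and 19.9 and 67.5 without chromosome 9 (chosen after seeing the data).

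For OCT1-only, DNMT3B-only and shared OCT1 peaks, a pileup of 20 or more gave 15.5%, 16.4% and 6.02% in enhancers, 34.6%, 26.7% and 6.24% in heterochromatin and 8.45%, 20.9% and 47.1% in repetitive states. A deposited P-value under 0.05 gave 9.83%, 13.95% and 5.20% in enhancers, 13.6%, 23.3% and 5.88% in heterochromatin and 25.7%, 34.9% and 51.5% in repetitive states. With 1 state per peak, enhancers held 14.2%, 15.7% and 10.1%, heterochromatin 46.7% of OCT1-only and repetitive states 27.7% of shared OCT1 peaks. On chromosomes 1 to 22 and X, shared OCT1 peaks had 16.6% enhancers, 20.03% heterochromatin, 39.8% repetitive states and 1.86% octamers, and OCT1-only peaks 48.9% heterochromatin. With a gap of 200 bp, 27.9% of shared OCT1 peaks were in repetitive states.

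The median ratio at shared regions was 1.03 without repetitive states (10 regions above 1) and 1.03 from the deposited folds, and 30 regions lay below 1 with mean pileups. At regions with an AC or AG run it was 0.626 in the short regions. For OCT1-only, DNMT3B-only and shared OCT1 peaks, ATGCAAA was in 4.13%, 5.57% and 11.98%. ATGCTAAT or ATGCAAAT was in 1.57% of OCT1-only and 3.51% of shared OCT1 peaks, and within 200 bp around the centre the octamer was in 0.782% and 0.763%. Repeats of 40 bp were in 0.201%, 5.88% and 5.31%, and in 48.8% of the DNMT3B-only peaks over 100 kb from OCT1 peaks. That share, 63.8% as reported, was 77.6% over 1 Mb and 87.4% at a pileup of 20 or more, all 3 chosen after seeing the data. Without repetitive states, repeats were in 6.23% of shared OCT1 peaks and copies in 5.50%, 8.39% and 29.4%, and at 95% identity over 90% copies were in 4.48%, 8.76% and 24.6%.

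At a pileup of 20 or more, 125 genes had a shared, 615 an OCT1-only and 264 a DNMT3B-only peak, and a vehicle OCT1 peak was at 39.7% of OCT1-only and 33.6% of DNMT3B-only peaks, a vehicle DNMT3B peak at 42.9% of DNMT3B-only peaks.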
